A study of Mus musculus with 9 samples.

Results

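The genes described here are 10 members of the Notch pathway: the receptors Notch1, Notch2, Notch3 and Notch4, the ligands Jag1, Dll1 and Dll4, and the target genes Hes1, Hey1 and Heyl. They were taken by symbol from the table of raw counts, in which all 10 were found among 43472 genes. Expression had been measured by RNA sequencing in 9 libraries of skeletal tissue from C57BL/6J mice. Bone (osteoblasts), mature cartilage (MatC, mature chondrocytes) and immature cartilage (ImC, immature chondrocytes) had 3 libraries each. The labels name no allele, treatment or transgene in any group, and age, sex and anatomical site are not given in the sources used here. They do not say whether each replicate is a different animal, and p-values here cover only the spread among these libraries, which may be technical. The RNA of every library went through 1 round of linear amplification.

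Notch receptors span the cell membrane and are switched on by a ligand on a neighbouring cell. Binding exposes the receptor to an ADAM protease and then to gamma-secretase, which frees its intracellular part. That part enters the nucleus, joins the DNA-binding protein RBPJ and a Mastermind coactivator, and turns on the Hes and Hey genes, which encode repressors of the basic helix-loop-helix family. In the skeleton the pathway is known for regulating chondrocyte maturation and for restraining osteoblast formation from progenitors. In blood vessels, Dll4 and Notch4 are known from endothelial cells and Notch3 from the mural cells around them.

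Total counts ran from 7913684 to 23159547 per library. Mitochondrially encoded genes took 7.24% to 8.91% of the counts in Bone, 33.7% to 82.3% in MatC and 32.02% to 55.0% in ImC. MatC replicate 3 stood apart, with the 82.3% and with 14940 genes detected against at least 17535 in every other library. In that library 3 reads were worth 0.849 CPM, the conventional count scaled to library size (here corrected by trimmed mean of M values factors), against at most 0.257 CPM elsewhere. The tissue labels were checked on marker genes. The cartilage proteoglycan gene Acan stood at 0.596 to 1.91 CPM in Bone, 630.0 to 1520 CPM in MatC and 865.0 to 1347 CPM in ImC. The hypertrophic collagen gene Col10a1 stood at 0.845 to 2.48 CPM in Bone, 816.9 to 4760 CPM in MatC and 0.427 to 0.75 CPM in ImC. The osteoblast factor gene Sp7 stood at 458.7 to 516.9 CPM in Bone, 129.5 to 202.4 CPM in MatC and 1.04 to 9.42 CPM in ImC. The levels of these markers followed the labels.

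All 10 members passed the filter on low counts, which 14257 genes passed. In the test across all of these genes, 5 members were called higher in MatC than in ImC and 0 lower, at an adjusted p under 0.05 (edgeR's quasi-likelihood test, Benjamini-Hochberg adjustment). These were Notch4, Dll1, Dll4, Hey1 and Heyl. Of them, Dll1, Dll4, Hey1 and Heyl had 2, 0, 6 and 3 reads over the ImC group. They passed the filter through their reads in the other groups, so they could hardly be called lower against ImC. In Bone against ImC, Notch4, Dll1, Dll4, Hey1 and Heyl were called higher and 0 members lower. Of all genes tested, 7.71% were called between MatC and ImC (5.41% higher and 2.29% lower), and 31.1% between Bone and ImC (14.3% higher and 16.8% lower). Between Bone and MatC 0 members were called by edgeR, DESeq2 or limma-voom, and 1 had an unadjusted p under 0.05, where 6.05% of all genes were called (1.36% higher and 4.69% lower). Each pair of comparisons shares a group of libraries, so their counts are not independent. In 9 members every Bone library lay above every ImC library, as in 30.1% of all genes. In 3 members every MatC library lay above every ImC library, as in 11.4% of all genes. The share of mitochondrial counts also separated Bone from cartilage and cannot be told apart from the tissue. With mitochondrially encoded genes left out, the same 5 members were called in each comparison against ImC. That fit only drops the rows of those genes, so it cannot separate the mitochondrial share from the tissue. The median log2 fold change of the 10 members was 3.10 in MatC against ImC, 0.35 in Bone against MatC and 2.09 in Bone against ImC. Over all tested genes the same medians were 0.03, -0.03 and -0.02. The member medians against ImC include the genes with almost no ImC reads. The members were also chosen with earlier results of these data known, so the medians are a description and not a test.

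**Figure D1:**
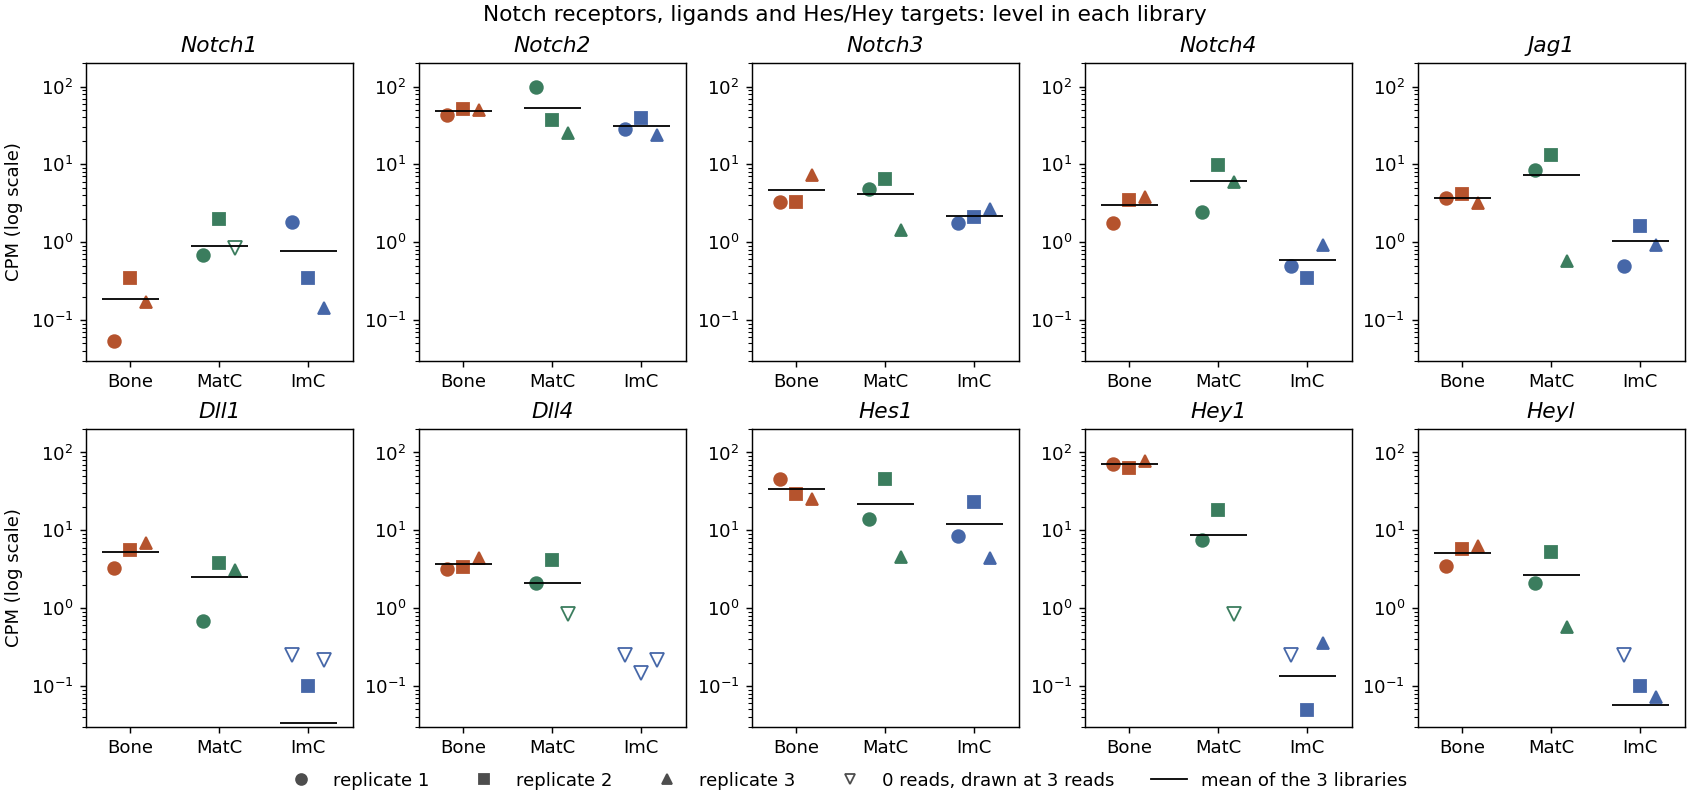
Level of each member in every library, as CPM on a log axis, with Bone, MatC and ImC side by side. Symbols stand for replicates, horizontal lines for the mean of 3 libraries, and open triangles mark libraries with 0 reads, drawn at the level of 3 reads in that library. Hey1 stood at 62.8 to 76.9 CPM in Bone, 0 to 18.3 CPM in MatC and 0 to 0.356 CPM in ImC.

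Genomic context is given for the 3 called receptor and ligand genes, as the stretch of reference sequence around a start site annotated by RefSeq (GRCm38.p6). Each window runs from 250 bases before that start to 50 bases after it and is written 5′ to 3′ on the strand of the gene. Capitals mark matches to CACNAG, the N-box that Hes proteins are known to bind, on either strand. RefSeq windows were matched for 7 of the 10 members by symbol; Hes1, Hey1 and Heyl had no entry.
Notch4, chr17:34564045-34564344, plus strand: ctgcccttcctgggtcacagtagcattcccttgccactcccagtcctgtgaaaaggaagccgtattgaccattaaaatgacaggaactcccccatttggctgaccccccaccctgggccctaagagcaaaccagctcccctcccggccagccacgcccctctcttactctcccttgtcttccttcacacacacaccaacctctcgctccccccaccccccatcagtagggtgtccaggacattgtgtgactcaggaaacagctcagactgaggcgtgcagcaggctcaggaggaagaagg
Dll1, chr17:15376883-15377182, minus strand: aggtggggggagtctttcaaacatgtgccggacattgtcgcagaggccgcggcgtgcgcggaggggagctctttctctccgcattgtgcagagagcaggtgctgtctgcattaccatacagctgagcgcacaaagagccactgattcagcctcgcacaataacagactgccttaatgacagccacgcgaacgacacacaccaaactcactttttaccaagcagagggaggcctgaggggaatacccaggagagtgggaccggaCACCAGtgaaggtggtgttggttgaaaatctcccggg
Dll4, chr2:119325534-119325833, plus strand: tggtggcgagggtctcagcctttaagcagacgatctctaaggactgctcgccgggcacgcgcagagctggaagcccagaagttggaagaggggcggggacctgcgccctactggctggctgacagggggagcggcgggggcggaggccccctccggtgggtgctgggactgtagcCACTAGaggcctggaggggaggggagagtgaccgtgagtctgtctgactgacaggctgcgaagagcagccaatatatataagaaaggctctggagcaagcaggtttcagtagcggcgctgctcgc
The windows of Dll1 and Dll4 held 1 N-box each and that of Notch4 held 0; another annotated Dll1 window, not shown, held 0 as well. An N-box was present in 42.5% of all 32851 windows of this length. The RBPJ core TGGGAA, searched on both strands, was found in none of the windows of the 7 matched members and in 25.6% of all windows. The E-box CACGTG was likewise found in none of them and in 7.15% of all windows. These matches describe the letters of the windows only.

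Among the receptors, Notch2 had the highest level per length in every library. Notch2 (chromosome 3, 98013527 to 98150361, GRCm38, plus strand) stood at 43.1, 52.1 and 50.5 CPM in Bone replicates 1, 2 and 3, at 97.2, 37.3 and 25.2 CPM in MatC, and at 28.7, 39.6 and 24.1 CPM in ImC. The Bone libraries lay above all ImC libraries, while MatC spanned both groups, with its replicate 1 the highest of the 9 libraries. The log2 fold change was 0.66 ± 0.44 in Bone against ImC (SE, adjusted p = 0.285), 0.80 ± 0.45 in MatC against ImC (adjusted p = 0.305) and -0.14 ± 0.44 in Bone against MatC (adjusted p = 0.888). None of these passed the test. The direction of the last one turned with library size only and without MatC replicate 1, at 0.48 and 0.64.

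Receptors were compared with each other as CPM per kilobase of merged exon. Of the summed level of the 4 receptors on that scale, Notch2 made up 82.8% ± 5.0 in Bone, 74.7% ± 14.6 in MatC and 87.2% ± 4.3 in ImC (SD, n = 3 each). Notch3 followed in Bone and ImC, at 10.3% ± 4.2 and 8.59% ± 3.08. Notch4 made up 6.72% ± 1.67 in Bone, 15.8% ± 11.1 in MatC and 2.46% ± 1.65 in ImC. In MatC the Notch4 share was 3.02%, 21.7% and 22.7% in replicates 1, 2 and 3, so replicate 1 lay within the range of ImC and the others lay above every Bone and ImC library. These shares are ratios within a library and do not depend on how libraries were scaled. The amplification method starts at the poly(A) tail, so levels per length of transcripts of different length are approximate.

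**Figure D2:**
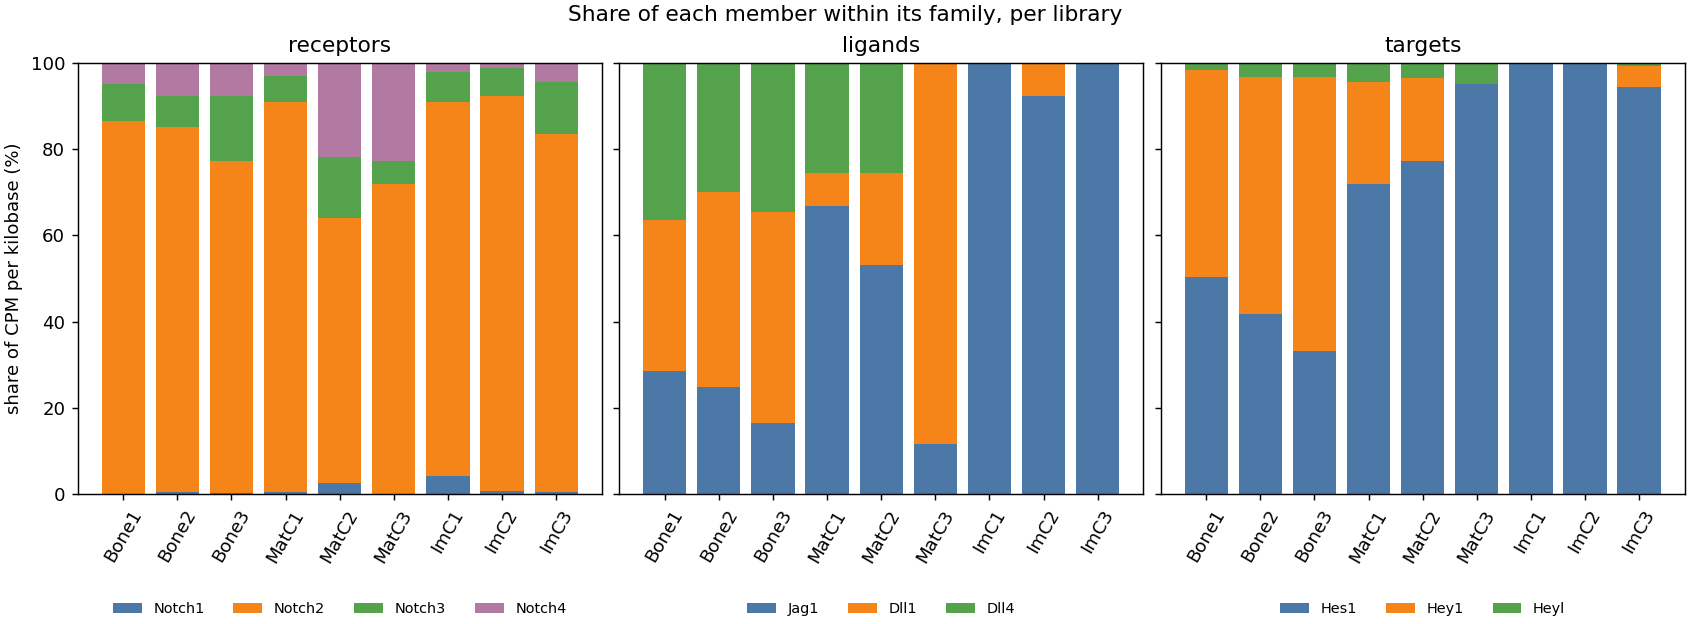
Share of each member within its family in every library, from CPM per kilobase of merged exon, for receptors, ligands and Hes/Hey targets. Notch2 was the largest receptor share in all 9 libraries, at 61.7% to 91.7%, and Jag1 was the largest ligand share in all 3 ImC libraries, at 92.3% to 100%.

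Notch4 was the only receptor called in any comparison. Notch4 (chromosome 17, 34564268 to 34588503, plus strand) stood at 1.79, 3.51 and 3.77 CPM in Bone, at 2.43, 9.80 and 5.94 CPM in MatC and at 0.500, 0.347 and 0.926 CPM in ImC. Every Bone library and every MatC library lay above every ImC library, and Bone and MatC overlapped. It rose by 3.35 ± 0.69 on the log2 scale in MatC against ImC (adjusted p = 0.0195) and by 2.35 ± 0.67 in Bone against ImC (adjusted p = 0.0238). In Bone against MatC its log2 fold change was -1.004 ± 0.62 (adjusted p = 0.372). In MatC against ImC the call was lost on leaving out ImC replicate 1, ImC replicate 2 or MatC replicate 2 (adjusted p 0.0765, 0.0579 and 0.0607 in that order), with library size only (0.0598) and with only the 2 groups in the fit (0.081). The Bone call ended without ImC replicate 1 or 2 or Bone replicate 2 or 3 (0.0679, 0.0638, 0.0746 and 0.082).

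Notch3 and Notch1 were not called in any comparison. Notch3 (chromosome 17, 32120820 to 32166852, minus strand) stood at 3.25, 3.25 and 7.38 CPM in Bone, at 4.78, 6.41 and 1.41 CPM in MatC and at 1.75, 2.13 and 2.64 CPM in ImC. All Bone libraries lay above all ImC libraries, with a log2 fold change of 1.09 ± 0.59 (adjusted p = 0.182). In MatC against ImC its log2 fold change was 0.99 ± 0.59 (adjusted p = 0.336). Notch1 (chromosome 2, 26457903 to 26516663, minus strand), the receptor most widely studied in blood cell development, was near the limit of detection, with 8 reads over the Bone group, 37 over MatC and 31 over ImC. It averaged 0.189 ± 0.145 CPM in Bone, 0.885 ± 1.002 CPM in MatC and 0.774 ± 0.923 CPM in ImC (SD, n = 3 each). The groups overlapped in every comparison, and its largest difference, a log2 fold change of -2.40 ± 1.25 in Bone against MatC, was not called (adjusted p = 0.287). Within groups its reads ran between 1 and 4 in Bone, 0 and 28 in MatC and 2 and 22 in ImC.

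Dll1 and Dll4, the Delta-type ligands among the members, had at most 2 reads in any ImC library and at least 39 in every Bone library. Dll4 (chromosome 2, 119325784 to 119335962, plus strand) had 58, 39 and 79 reads in Bone, 28, 59 and 0 reads in MatC and 0 reads in all 3 ImC libraries. As levels these were 3.14, 3.34 and 4.45 CPM in Bone and 2.12, 4.16 and 0 CPM in MatC, where the 0 of replicate 3 allows up to 0.849 CPM. With reads pooled over each group and set against a floor of 3 reads over the ImC group (0.0649 CPM), Dll4 was at least 56.6-fold higher in Bone (adjusted p = 0.00624) and at least 43.3-fold higher in MatC (adjusted p = 0.0274). Here and below, an adjusted p beside a pooled ratio or bound comes from the edgeR test and not from the pooled reads. Without MatC replicate 2, which held 59 of the MatC reads, the pooled MatC bound of Dll4 was at least 25.8-fold. Without ImC replicate 2 the floor weighs more, and the bounds were at least 31.9-fold for Bone and 24.4-fold for MatC. Bone and MatC overlapped (adjusted p = 0.707). The MatC call was lost when any of 7 libraries was left out: ImC 1, ImC 2, MatC 1, MatC 2, Bone 1, Bone 2 and Bone 3 (adjusted p = 0.0664, 0.0568, 0.0539, 0.0619, 0.0556, 0.06 and 0.0561). It also ended with library size only (0.0569). Without MatC replicate 3 its adjusted p was 0.00447, and the Bone call held in every setting tried.

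Dll1 (chromosome 17, 15367354 to 15376872, minus strand), the ligand first known from somite formation, had 61, 65 and 123 reads in Bone, 9, 54 and 11 in MatC and 0, 2 and 0 in ImC. Its levels were 3.30, 5.57 and 6.93 CPM in Bone, 0.682, 3.81 and 3.11 CPM in MatC and at most 0.0993 CPM in ImC. Bone and MatC each lay wholly above ImC and overlapped with each other. From pooled reads the ratio of Bone to ImC was 120.0 (95% counting interval 32.9 to 997; adjusted p = 0.0018). The ratio of MatC to ImC was 55.3 (14.8 to 465; adjusted p = 0.0141). The fitted log2 fold changes of Dll1 were 6.72 and 5.65 in these comparisons, and 9.11 and 8.04 without ImC replicate 2, which held both ImC reads. With 0 ImC reads left, the pooled ratios become bounds of at least 45.1-fold in Bone and 20.8-fold in MatC. Without MatC replicate 2, which held 54 of the MatC reads, the ratio of MatC to ImC was 27.6, and it was 84.7 without MatC replicate 1. With library size only the fitted value in MatC against ImC was 4.73. The MatC call ended without ImC replicate 1 (0.053) and with only the 2 groups in the fit (0.0738).

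Jag1 was the only ligand of the 3 with a read in every library. Jag1 (chromosome 2, 137081456 to 137116644, minus strand), which encodes a ligand of the Serrate type, stood at 3.74, 4.20 and 3.21 CPM in Bone, at 8.41, 13.1 and 0.566 CPM in MatC and at 0.500, 1.64 and 0.926 CPM in ImC. Bone lay above ImC in all 3 libraries, with a log2 fold change of 1.83 ± 0.82 that was not called (adjusted p = 0.114). In MatC, replicates 1 and 2 were the highest of all 9 libraries and replicate 3 lay within ImC; the log2 fold change against ImC was 2.85 ± 0.84 (adjusted p = 0.0675). Without MatC replicate 3 both became calls, at 1.87 in Bone against ImC (0.0169) and 3.38 in MatC against ImC (0.00704). Jag1 was then the 6th member called in each comparison, where 8.28% of all genes were called between MatC and ImC and 36.1% between Bone and ImC. Between Bone and MatC, where 3.26% of all genes were then called, 0 members were. Jag1 was also called in MatC against ImC by DESeq2's Wald test (0.00562) and with no filter (0.0115), and in Bone against ImC with only those groups in the fit (0.0264).

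On the scale of CPM per kilobase, the ligands took the following shares. Jag1 made up 23.3% ± 6.2 of the 3 ligands in Bone, 43.9% ± 28.8 in MatC and 97.4% ± 4.5 in ImC (SD, n = 3 each). Dll1 made up 43.1% ± 7.3 in Bone, 7.50%, 21.3% and 88.4% in MatC replicates 1, 2 and 3, and 2.57% ± 4.46 in ImC. Dll4 made up 33.6% ± 3.4 in Bone and 0% in ImC. The ImC shares rest on 6 to 35 reads per library.

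Among the targets, Hey1 had the largest log2 fold change in each comparison. Hey1 (chromosome 3, 8663359 to 8667256, minus strand) had 1301, 733 and 1366 reads in Bone, 99, 260 and 0 in MatC and 0, 1 and 5 in ImC. Its levels were 70.4, 62.8 and 76.9 CPM in Bone, 7.50, 18.3 and 0 CPM in MatC and 0, 0.0496 and 0.356 CPM in ImC. Bone lay above both cartilage groups without overlap, while MatC replicate 3 had no read, as had ImC replicate 1. The log2 fold change was 8.96 ± 1.33 in Bone against ImC (adjusted p = 0.00139) and 6.00 ± 1.25 in MatC against ImC (adjusted p = 0.0208).

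In Bone against MatC the log2 fold change of Hey1 was 2.96 ± 0.92, which was not called (adjusted p = 0.0905), although all Bone libraries lay above all MatC libraries. Groups stood apart in this way for 35.6% of all genes, 17.9% with Bone above. Hey1 was the only member of the 10 with such a separation between Bone and MatC. It was called there with no filter (0.00159) and without ImC replicate 3 (0.0479), whereas leaving out MatC replicate 3 gave 2.47 (adjusted p = 0.0593). In MatC against ImC the Hey1 call was lost on leaving out ImC 1, ImC 2 or MatC 2 (0.0749, 0.0614 and 0.0546), with library size only (0.0569) and by limma-voom (0.0974). Without ImC replicate 3, which held 5 of the 6 ImC reads, the fitted Hey1 values were 10.79 in Bone against ImC and 7.85 in MatC against ImC. Without MatC replicate 2 the fitted value in MatC against ImC was 4.92.

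Heyl (chromosome 4, 123233556 to 123249875, plus strand), a relative of Hey1 known from vascular smooth muscle, stood at 3.46, 5.74 and 6.25 CPM in Bone, at 2.12, 5.22 and 0.566 CPM in MatC and at 0, 0.0993 and 0.0712 CPM in ImC. Bone and MatC lay above ImC in every library and overlapped with each other (adjusted p = 0.502). With 3 reads in all of ImC, the pooled ratio of Bone to ImC was 77.8 (95% counting interval 26.3 to 380; adjusted p = 0.00195) and that of MatC to ImC was 51.8 (17.2 to 255; adjusted p = 0.0138). The Heyl calls held in every setting tried that tested the gene. In the fit of only MatC and ImC, Dll4, Hey1 and Heyl did not pass the filter on low counts and were not tested. In MatC against ImC the fitted log2 fold change of Heyl was 5.27, and 4.36 without MatC replicate 2, where the pooled ratio was 27.6. Without ImC replicate 2 the pooled ratios were 132 in Bone and 87.6 in MatC.

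Hes1 (chromosome 16, 30064384 to 30067796, plus strand), the most general Notch target, was read in all 9 libraries. It stood at 45.8, 29.6 and 25.2 CPM in Bone, at 14.2, 46.1 and 4.53 CPM in MatC and at 8.50, 22.8 and 4.34 CPM in ImC. Bone lay above ImC without overlap, and 59% of all genes separated Bone from ImC in one direction or the other. Its log2 fold change was 1.49 ± 0.77 in Bone against ImC (adjusted p = 0.161) and 0.88 ± 0.76 in MatC against ImC (adjusted p = 0.514). Neither was called, and the second turned to -0.30 without MatC replicate 2. The difference in Bone against ImC was called with no filter (0.0467).

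On the scale of CPM per kilobase, Hes1 made up 50.3%, 41.7% and 33.3% of the 3 target genes in Bone replicates 1, 2 and 3, and Hey1 made up 48.2%, 55.1% and 63.4% there. The Hes1 share was 71.9%, 77.3% and 95.3% in MatC and 94.5% to 100% in ImC. Hey1 was thus read at a level per length close to or above that of Hes1 in Bone and below it in every cartilage library.

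**Figure D3:**
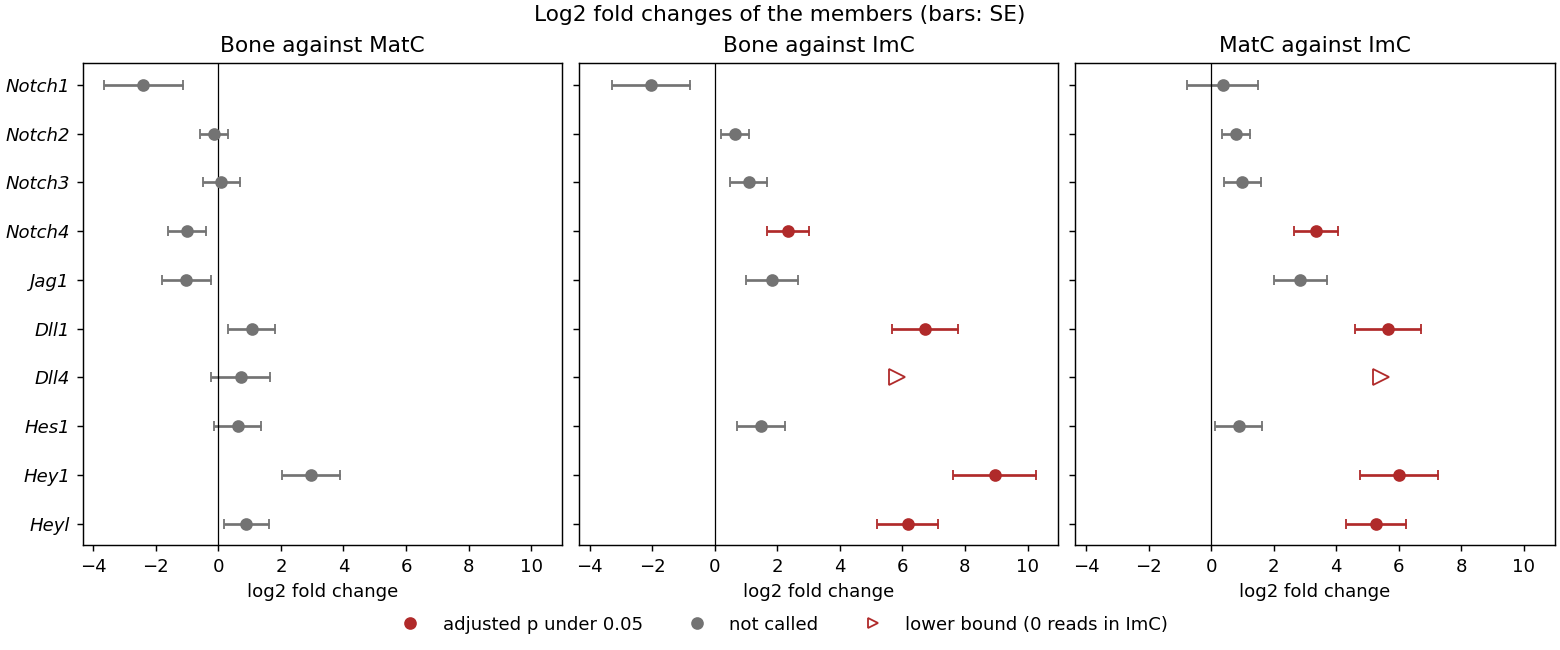
Log2 fold changes of the 10 members in the 3 comparisons, with bars for the SE and red for an adjusted p under 0.05. Open triangles give the lower bound for Dll4, which had 0 reads in ImC. Values of Dll1, Hey1 and Heyl against ImC are fitted values on 2, 6 and 3 ImC reads. Called members lie to the right in both comparisons against ImC, and no member is called in Bone against MatC.

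Other genes of the pathway were called in both directions. Of 55 listed genes 49 were tested. Between MatC and ImC 3 were called higher and 1 lower, with a median log2 fold change of -0.12; at 8.16% the calls were near the 7.71% of all genes. Between Bone and MatC 0 were called by edgeR or limma-voom and 6 by DESeq2 (median 0.18). Over all genes DESeq2 called 676 higher and 1288 lower in that comparison. Of the list, 8 had an unadjusted p under 0.05, for which no share of all genes was counted. Between Bone and ImC 9 were called higher and 8 lower (median 0.41), which at 34.7% was near the 31.1% of all genes. Among the 9, Hey2, Jag2, Mfng, Dner and Lfng had 0, 1, 1, 1 and 4 reads over the ImC group. They passed the filter through the other groups and could hardly be called lower against ImC. The same holds for Mfng and Dner among the genes called higher in MatC. By role, the sugar modifiers of the receptor had 4 of 5 genes called between Bone and ImC (Lfng and Mfng higher, Pofut1 and Poglut1 lower) and the proteases that cleave it had 1 of 10 (Adam10, higher). Leaving out 1 library ended the calls of Lfng, Pofut1, Poglut1 and Adam10 in several cases, with adjusted p up to 0.152, 0.693, 0.607 and 0.146 over the alternatives. The nuclear complex had 3 of 8, with Kat2b higher and Maml2 and Kat2a lower; the Kat2b call was lost without ImC replicate 1 or Bone replicate 2 or 3 (0.0549, 0.0541 and 0.0615) and with library size only (0.0965). Ubiquitin ligases, trafficking factors and inhibitors had 4 of 14, with Dtx4 and Dner higher and Mib2 and Dtx3l lower; the Dtx3l call was lost without Bone replicate 2 or 3 (0.0627 and 0.052) and with library size only (0.0919), and the Mib2 call in that setting too (0.101). For the ligand gene Jag2, with a single ImC read, the pooled Bone level was 103 times that of ImC (95% counting interval 18.1 to 4112; adjusted p = 0.00464), and at least 19.4-fold higher without ImC replicate 2, which held the read. Dll3 was not tested, having at most 0.303 CPM in any library.

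The called genes with the smallest p included modifiers of the receptor and of its signal. Dner, which encodes a membrane protein described as an atypical Notch ligand, stood at 49.0, 8.39 and 12.7 CPM in Bone, at 2.65, 6.34 and 0.849 CPM in MatC, and had 1 read in ImC. Its pooled ratio to ImC was 1185 in Bone (95% counting interval 212.3 to 46836; adjusted p = 0.000886) and 191 in MatC (33.7 to 7612; adjusted p = 0.0151). Bone replicate 1 was the highest library for Dner, and the pooled Bone ratio was 507 without it. The MatC ratio of Dner was 105 without MatC replicate 2. Without ImC replicate 1 the ratios become bounds of at least 292-fold in Bone and 47.2-fold in MatC. In MatC against ImC the Dner call ended by limma-voom (0.0621) and without ImC replicate 1 (0.0523), which held the single read. Dtx4, which encodes an E3 ubiquitin ligase of the Deltex family, rose by 3.08 ± 0.49 on the log2 scale in Bone against ImC (adjusted p = 0.00197) and by 3.19 ± 0.50 in MatC against ImC (adjusted p = 0.00662). The MatC call of Dtx4 ended with library size only (0.0793). Its relative Dtx1 fell by 3.11 ± 0.73 in MatC against ImC (adjusted p = 0.0322), a call that ended without any 1 library other than ImC replicate 3 or MatC replicate 3 (0.0548 to 0.0826).

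Mfng, a Fringe sugar transferase that alters which ligands a receptor answers to, had 1 read in ImC. Its pooled ratio to ImC was 85.8 in Bone (95% counting interval 15.01 to 3427; adjusted p = 0.00768) and 145 in MatC (25.4 to 5783; adjusted p = 0.0185). Without MatC replicate 2 the pooled MatC ratio of Mfng was 60.7, and without Bone replicate 3 the Bone ratio was 53.6. Without ImC replicate 3, which held the read, the bounds were at least 19.9-fold in Bone and 33.6-fold in MatC. Leaving out ImC 1, ImC 2 or MatC 2 ended the MatC call (0.0693, 0.0568 and 0.0514). The coactivator gene Maml2 and the acetyltransferase gene Kat2a fell in Bone against ImC, with log2 fold changes of -2.20 ± 0.47 (adjusted p = 0.00733) and -2.01 ± 0.36 (0.00332); both calls ended with library size only (0.0604 and 0.0611). Rbpj and Hey2 were picked out after their values were seen. Rbpj stood at 35.8, 30.0 and 44.3 CPM in Bone, 43.2, 27.7 and 17.0 CPM in MatC and 24.997, 34.3 and 18.9 CPM in ImC, and was not called. Hey2, the third Hey gene, had 0 reads in ImC and was at least 25.7-fold higher in Bone (adjusted p = 0.018), a call that ended without Bone replicate 1 (0.0557), where the bound was at least 13.1-fold.

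Markers of other cell types were also called in the comparisons against ImC. The summed level of 16 endothelial markers was 77.5 to 231 CPM in Bone, 108 to 398 CPM in MatC and 14.1 to 28.9 CPM in ImC. Of the 15 tested, 11 were called higher in MatC than in ImC and 12 in Bone than in ImC. All 16 had a read in each Bone library and in MatC replicates 1 and 2, 12 in MatC replicate 3, and 8, 8 and 12 in the ImC libraries. In ImC, Cldn5, Robo4 and Sox17 were at 0 throughout, and Cdh5 and Kdr reached at most 0.142 and 0.356 CPM. Other markers were read there: Egfl7 stood at 2.38 to 3.42 CPM in ImC, and in ImC replicate 3 Pecam1 and Esam reached 8.26 and 6.91 CPM, above Bone replicate 1 at 5.20 and 4.49 CPM. Erg made up most of the sum in MatC replicate 3 (85.4 CPM, with Cdh5 at 0.566 CPM), in ImC replicate 1 (8.33 CPM) and in ImC replicate 2 (20.4 CPM). Because these are bulk samples, fewer cells of a type and less RNA per cell cannot be told apart. The part of endothelial cells in the results for Notch4, Dll1, Dll4, Jag1, Hey1 and Heyl was not tested.

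Set beside these markers, the members did not all follow the same libraries. In MatC replicate 3, Cdh5, Kdr and Tek stood at 0.566, 1.41 and 0.566 CPM, but Pecam1, Egfl7 and Erg at 8.20, 8.49 and 85.4 CPM. That library had 0 reads of Dll4 and Hey1 but 5.94 CPM of Notch4 and 3.11 CPM of Dll1. Bone replicate 1 had the lowest endothelial sum of the Bone libraries, 77.5 against 213 and 231 CPM in replicates 2 and 3. Its Hey1 level, 70.4 CPM, lay between those of the other Bone libraries, whereas its Notch4, Dll1, Dll4 and Heyl levels were the lowest in Bone. In MatC replicate 2 the endothelial sum, 398 CPM, was above that of every Bone library, and Hey1 stood at 18.3 CPM against at least 62.8 CPM in Bone.

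**Figure D4:**
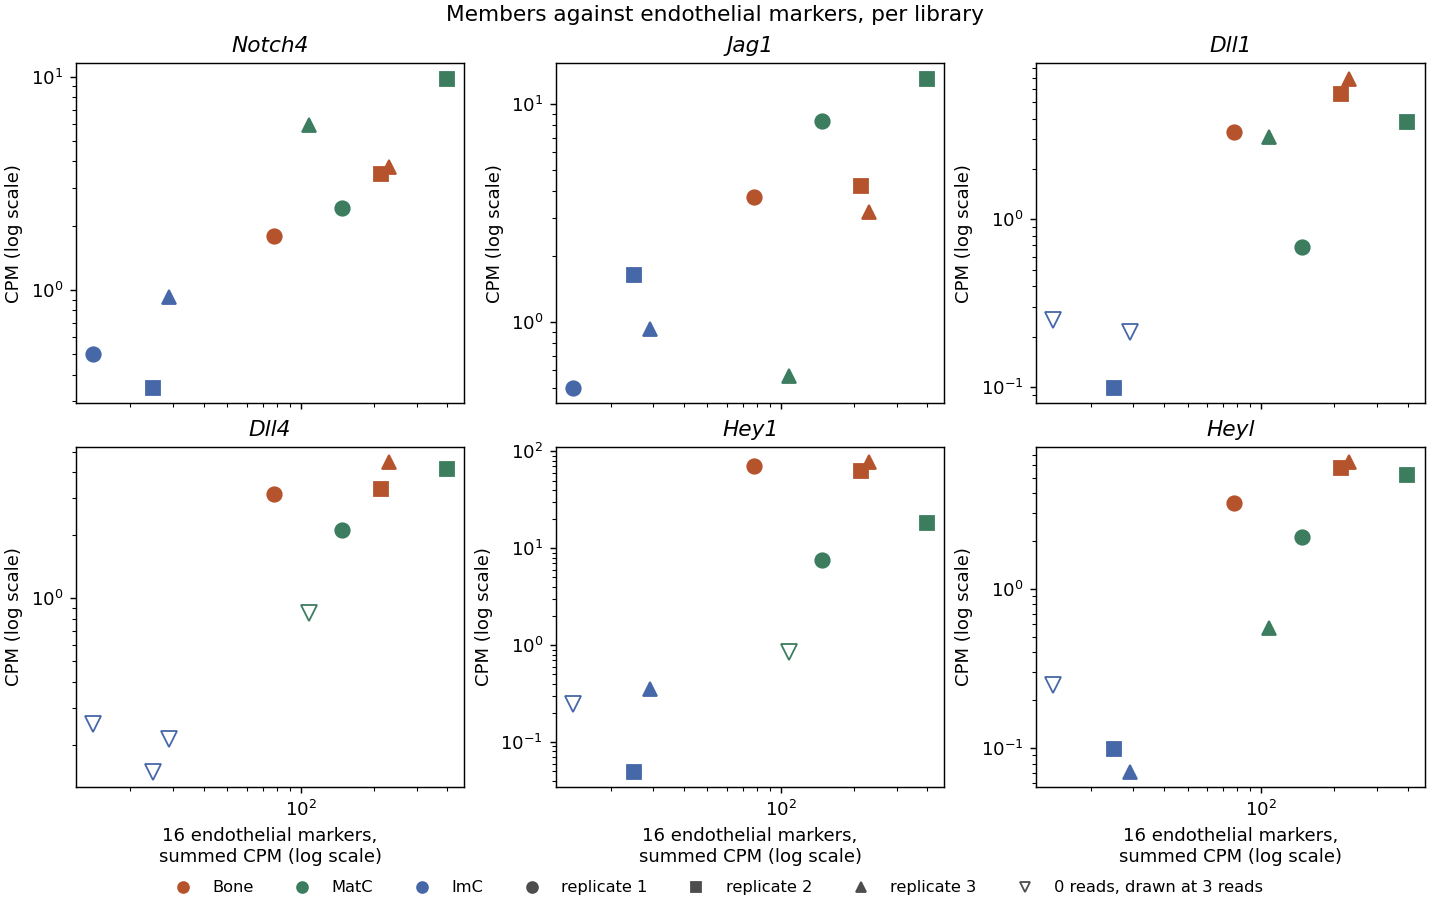
Level of 6 members in each library (y axis, CPM, log scale) against the summed CPM of 16 endothelial markers (x axis, log scale), coloured by tissue, with open triangles for 0 reads drawn at 3 reads. ImC lies at 14.1 to 28.9 CPM of markers; at 77.5 CPM of markers Bone replicate 1 had 70.4 CPM of Hey1, and at 398 CPM of markers MatC replicate 2 had 18.3 CPM. Erg alone made up most of the marker sum in ImC replicates 1 and 2 and in MatC replicate 3 (85.4 of 108 CPM).

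Mural cell markers had their highest sums in ImC, mainly through Cspg4. Their summed level, over 12 genes, was 67.9 to 101.4 CPM in Bone, 422 to 622 CPM in MatC and 707 to 1140 CPM in ImC. Cspg4 stood at 37.0 to 39.7 CPM in Bone, 344 to 597 CPM in MatC and 652 to 1082 CPM in ImC and made up most of the sums in MatC and ImC. Of 8 tested, 1 was called higher and 2 lower in Bone than in ImC, and 0 higher and 1 lower for MatC. The smooth muscle gene Myh11 was at 0 in Bone, whereas Tagln was the marker called higher in Bone than in ImC. Acta2 stood at 7.25, 3.60 and 21.6 CPM in Bone and at 0, 0 and 4.20 CPM in ImC. The defining markers Pdgfrb, Rgs5 and Acta2 were not called in any comparison, and the Rgs5 level in MatC was 23.95, 2.89 and 0.283 CPM. Macrophage and leukocyte markers summed to 37.0 to 97.7 CPM in Bone, 6.22 to 73.3 CPM in MatC and 3.28 to 6.12 CPM in ImC, with 9 of 10 tested called higher in Bone than in ImC and 5 in MatC than in ImC. C1qa had 0 reads in ImC, and Ptprc and Csf1r reached at most 0.347 and 0.641 CPM there. Osteoclast markers summed to 357 to 709 CPM in Bone, 10.2 to 324 CPM in MatC and 4.99 to 7.33 CPM in ImC, with 7 of 8 tested called higher in Bone than in ImC and 3 in MatC than in ImC. The part of these cells in the members' levels was not tested.

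Osteoblast markers also differed between the MatC libraries. Their sum over 10 genes was 80174 to 95588 CPM in Bone, 8345, 26640 and 1246 CPM in MatC replicates 1, 2 and 3, and 523 to 582 CPM in ImC. Within MatC, every member but Notch4 and Dll1 was lowest in replicate 3, the library with the lowest osteoblast sum, and Notch4 and Dll1 were lowest in replicate 1. MatC replicate 3 also had the lowest MatC sums of endothelial, leukocyte, osteoclast and fibroblast markers, at 108, 6.22, 10.2 and 539 CPM. In contrast, it had the highest MatC sums of 8 hypertrophic and 10 immature chondrocyte markers, at 14123 and 25752 CPM. Replicates 1 and 2 had 3661 and 6366 CPM of the former and 19626 and 10558 CPM of the latter. Its mural sum, 622 CPM, was the highest in MatC as well. Its mitochondrial share was the highest, at 82.3%. These features cannot be told apart in 1 library, and their part in the members' levels was not tested. Perichondrium and fibroblast markers summed to 895 to 1407 CPM in Bone, 539 to 1856 CPM in MatC and 64.7 to 746 CPM in ImC, with 6 of 10 called higher in each comparison against ImC.

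For each called member, the 3 genes with the most similar profile over the 9 libraries were taken by the root mean square distance of centred log2 CPM. For Hey1 these were Ambn (ameloblastin, an enamel matrix protein), Col22a1 (a collagen) and Lipi (a phospholipase), at distances of 0.57, 0.58 and 0.72. Ambn stood at 93.6, 84.2 and 85.5 CPM in Bone, 4.24, 29.0 and 0 CPM in MatC and at most 0.0712 CPM in ImC. For Notch4 they were Gimap6, Pdgfa and Nes (0.27, 0.40 and 0.47), and for Heyl they were Tfpi2, Nckap1l and Ptprv (0.34, 0.44 and 0.45). For Dll4 they were Klhl6, Bik and Il2rg (0.30, 0.32 and 0.32), and for Dll1 they were Itga2, Hbb-bh1 and Lcp2 (0.34, 0.42 and 0.50). Being at or near 0 in ImC together brings a pair of genes closer on this measure, whatever else they share.

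Reads of overlapping genes on opposite strands cannot be told apart, because the library kit is not stranded. Exons of A930024N18Rik on the other strand cover 20.5% of the exon length of Dll1, and that gene had 9, 4 and 4 reads in Bone and 0 in MatC and ImC. Exons of Gm14207 cover 5.56% of Dll4, with 55, 12 and 24 reads in Bone, 4, 10 and 0 in MatC and 0 in ImC. Exons of 0610009E02Rik cover 7.5% of Notch1, with 3, 3 and 5 reads in Bone, 2, 8 and 0 in MatC and 18, 21 and 7 in ImC. No exon of another gene overlapped Notch4, Jag1, Hes1, Hey1 or Heyl in the annotation.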

How the data were processed

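RNA from bone, mature cartilage and immature cartilage of C57BL/6J mice was amplified and sequenced, per the labels. The authors deposited a table of raw counts per gene symbol, used here, and a smaller normalized table. The whole-number values of that table are a score scaled by 1 factor per library, and only those factors, deposited by the authors, were used, as an alternative. It holds 13302 genes and 9 of the members. Trimmomatic 0.30, TopHat2, Bowtie2, HTSeq, edgeR and mm10 are named without roles, per the submitters' processing notes. No row of the count table lacked a gene name.

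Genes were filtered with filterByExpr (minimum count 10), scaled by trimmed mean of M values and tested with edgeR 4.0.16's quasi-likelihood test in 1 fit of all 9 libraries (R 4.3.3), with Benjamini-Hochberg adjustment over 14257 genes. DESeq2 1.42.0 and limma 3.58.1 gave alternatives. The test was checked on simulated counts. Levels are CPM on scaled library sizes, and a floor is 3 reads. Intervals (95%, exact binomial) and floors cover counting error only, since reads carry no molecular identifiers. No replicates agreed within sampling noise: chi-square per degree of freedom was 14.1 to 409.5. Coordinates come from GENCODE M21 (GRCm38) and promoter windows from RefSeq.

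The members and lists were chosen with earlier results of these data known. All members are named; other pathway genes are those called, at most 6 per comparison by smallest p; genes of like profile are the 3 nearest to each called member. Defining markers were fixed by name, and further markers were named after their values were seen. The corepressor genes of the list are not reported here one by one.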

Additional observations from a re-analysis of the deposited data

How the results depend on the processing

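Over 20 alternatives per comparison, member results kept their direction and side of the threshold in 540 cases, lost a call in 25, gained one in 9 and turned direction in 12, all of the last uncalled; the causes were not tested. The 5 members called in MatC against ImC became 2 with library size only, 0 with only the 2 groups in the fit, and 1 to 6 with a library left out. The 0 called in Bone against MatC became 1 with no filter and 0 to 1 with a library left out. Counts over all genes in MatC against ImC (1099) were 358 with library size only, 1690 with no filter, 2229 by DESeq2, 205 with only the 2 groups and 355 to 1240 with a library left out. In Bone against MatC (863) they were 297, 1504 and 1964 under the first 3 of these settings and 167 to 1702 with a library left out. In Bone against ImC (4432) they were 2073 with library size only and 2343 to 5408 with a library left out. With library size only, the median log2 fold change of all genes moved to -0.51, 0.95 and 0.46 (MatC over ImC, Bone over MatC, Bone over ImC). The higher share of calls was then 53.4%, 40.1% and 59%, against 70.2%, 22.5% and 46%. In Bone against MatC it was also 40% by limma-voom, 36.7% with only the 2 groups and 34.4% by DESeq2.

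Directions turned as follows, as log2 fold changes. In MatC against ImC, Notch1 was -0.23 with library size only and ran from -0.10 to 1.88 with a library left out, and Hes1 ran from -0.30 to 1.78. In Bone against MatC, Notch2 was 0.48 with library size only, 0.013 by limma-voom, 0.032 with the replicate block and -0.45 to 0.64 with a library left out. Notch3 was -0.019 by limma-voom and -0.39 to 0.52 with a library left out, and Notch4 was 0.28 with library size only.

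Same-numbered libraries correlated in their deviations at -0.0433 to 0.240 (MatC and ImC), -0.131 to -0.0697 (Bone and MatC) and -0.0111 to 0.0992 (Bone and ImC), and 3, 0 and 3 of 6 libraries correlated best with their own number, so the numbers were not taken as pairs. A fit with the replicate block called 725 genes in MatC against ImC. It called 814 in Bone against MatC, and 4088 in Bone against ImC. Among members it ended the Dll4 call in MatC against ImC (adjusted p = 0.0563) and called Hes1 in Bone against ImC (0.0257). The fit with bias-adjusted deviances and that with the authors' scaling factors were chosen after seeing the data, and called 5, 0 and 5 members. Counts were low for Notch1 in all groups and for Dll1, Dll4, Hey1 and Heyl in ImC, and in MatC replicate 3 the level of 3 reads is 0.849 CPM.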
